A study of Homo sapiens with 15 samples.

Results

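The transcripts that differed between NCI-H69 cells given CS2 and the same cells given DMSO are described here across 19781 genes, with weight on transcription factors, kinases, receptors and secreted factors. NCI-H69 cells are an established human line from a small cell lung cancer of the classic type, a neuroendocrine tumour. CS2 is another name of brequinar, which inhibits DHODH, an enzyme of pyrimidine synthesis in mitochondria, and the series names it as an inhibitor of FTO, an enzyme that takes a methyl mark off RNA. The 3 CS2 libraries were set against the 3 libraries of cells given only the solvent DMSO, and 6 of the 15 samples of the series therefore form the comparison. A further 3 libraries of H69 cells given FB23-2, also named as an FTO inhibitor, entered the same fit and were used to test single genes between the compounds. The labels give no genetic change in any group, and all cells were of this single line. Neither dose nor duration of treatment is stated in the labels used here, so the compounds were not compared at a known matched dose. The series calls the replicates biological, and p-values measure the spread between these libraries.

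As background, brequinar lowers the supply of uridine and cytidine nucleotides that cells need to make RNA and DNA. Classic small cell lung cancer cells carry a neuronal and endocrine programme: they express transcription factors such as INSM1, store peptides with granin proteins in secretory granules, and bear many ion channels, guidance receptors and adhesion proteins of neurons. Transcription factors set which genes are read, kinases and phosphatases add and remove phosphate on proteins or small molecules, receptors take up signals at the surface, and secreted factors carry them between cells.

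Total counts ranged from 31404658 to 45022633 per library with DMSO and from 29916267 to 33663742 with CS2, so that 3 counts corresponded to between 0.0666 and 0.101 CPM. CPM are read counts scaled to 1000000 per library after adjustment for composition. Log2 CPM correlated at 0.9856 to 0.9915 between libraries of a group and at 0.9561 to 0.9631 between DMSO and CS2 libraries. Genes of the mitochondrial genome took 5.18% to 5.69% of the counts with DMSO and 7.30% to 9.05% with CS2. With FB23-2 they took 6.83%, 10.97% and 6.91% in replicates 1, 2 and 3. FB23-2 replicate 2 also lay furthest from its group. Its median absolute deviation of log2 CPM from the group mean was 0.158, against 0.0689 to 0.114 in the DMSO and CS2 libraries. It was kept in the fit and in every test between the compounds. Of the neuroendocrine marker list, 18 of 20 genes exceeded 1 CPM with DMSO, and the list summed to 4590 to 4910 CPM with DMSO and 4770 to 4880 with CS2. Markers of blood cells summed to 4.71 to 5.53 CPM with DMSO and 4.76 to 6.22 with CS2, with CD3E at 0. Those of fibroblasts and endothelium summed to 56.7 to 58.9 and 37.9 to 43.7 CPM, most of it COL1A2, with COL3A1, DCN and KDR at 0. Adjusted p-values come from the quasi-likelihood test of edgeR, adjusted by the Benjamini-Hochberg method over all genes tested, errors of log2 fold changes are standard errors (SE), and errors of CPM are standard deviations (SD, n = 3). "Rose", "fell", "higher" and "lower" count genes past an adjusted p of 0.05.

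After scaling, CS2 moved about as many genes up as down. The adjustment for composition takes most genes as unchanged, so it places the middle of the changes near 0. A change of total RNA per cell would not show in these values. With CS2, 4815 genes were higher, 24.3% of those tested, and 5014 were lower, 25.3%, so that 49.7% passed in either direction. More than 2-fold, 1250 genes were higher (6.32%) and 1893 lower (9.57%). The middle of the distribution lay close to 0: the quartiles of the log2 fold change were -0.44 and 0.38, and the 5th and 95th percentiles were -1.55 and 1.18. DMSO and CS2 libraries did not overlap in CPM for 60.6% of all genes tested and for 97.5% of the genes that passed. Each count of list members below is read against 24.3% higher and 25.3% lower. Between CS2 and FB23-2, 59.6% of all genes tested passed, 30% higher and 29.7% lower with CS2, so a difference between the compounds was common. Families within a list were grouped by symbol after their values were seen, as were those members named only in such a count.

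The 4 classes differed in balance. Of 528 transcription factors tested of 660 listed, 116 (22%) rose and 169 (32%) fell. Of 517 kinases and phosphatases tested of 575, 130 (25.1%) rose and 175 (33.8%) fell. Receptors, channels and adhesion proteins had the largest lower share, with 192 (37.8%) of 508 tested lower and 106 (20.9%) higher, and 321 of the 830 listed did not pass the filter on low counts. Secreted factors were the class with more increases than decreases, 142 (30.8%) against 121 (26.2%) of 461 tested of 850 listed. Median log2 fold changes were -0.03, -0.06, -0.15 and 0.06 for the 4 classes in that order, beside -0.00 over all genes tested. The list-by-list counts spread far more than these class totals.

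**Figure D1:**
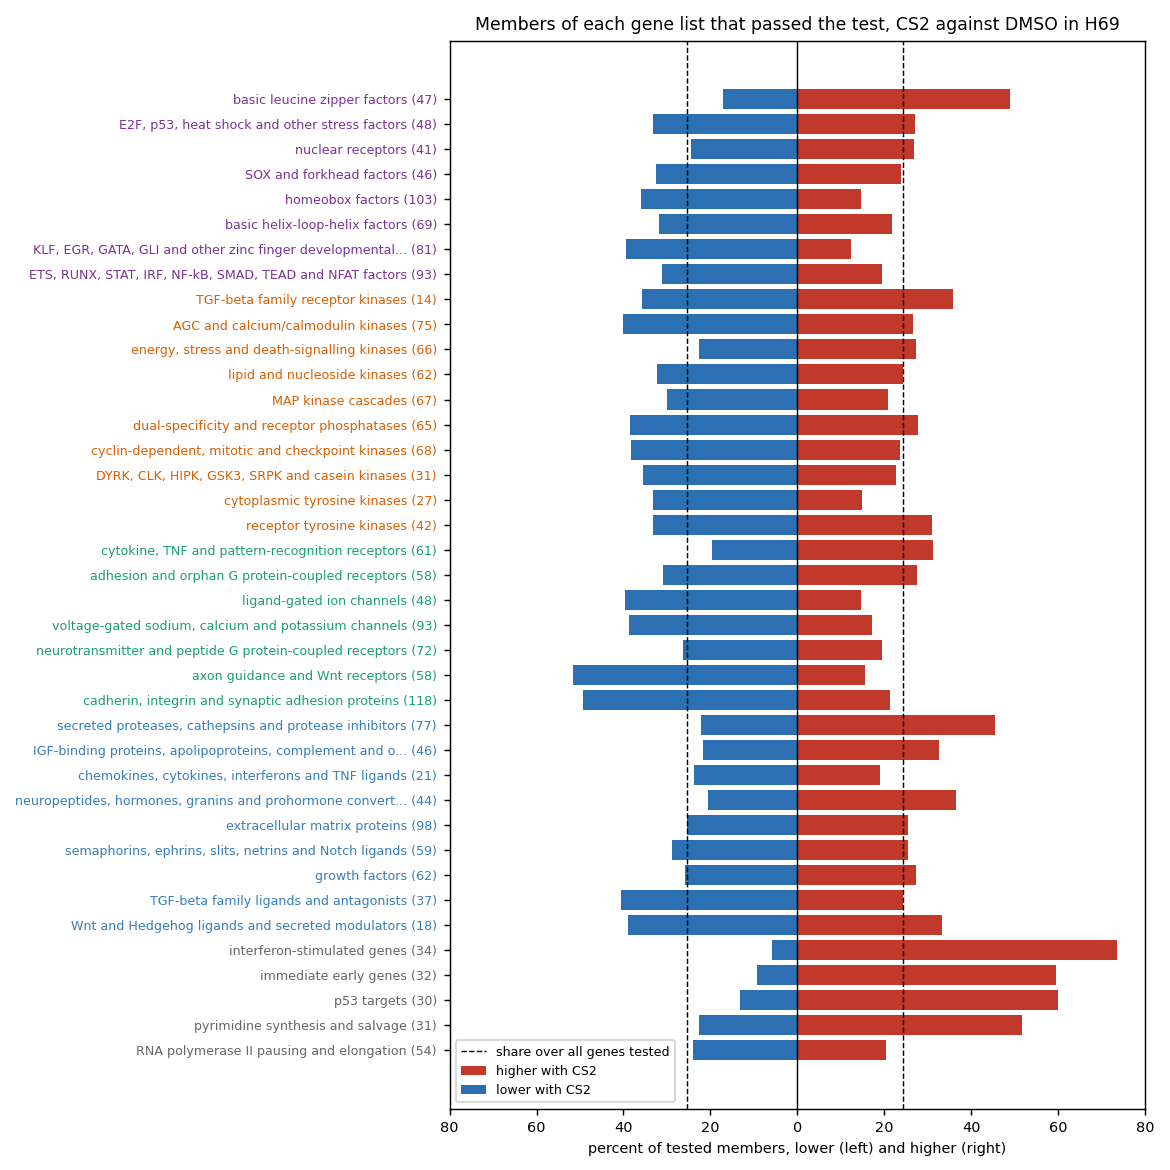
Percent of tested members of each gene list that passed the test with CS2 against DMSO, lower to the left in blue and higher to the right in red, with the number tested in parentheses. Dashed lines mark the shares over all genes tested, 25.3% lower and 24.3% higher; interferon-stimulated genes reach 73.5% higher, and axon guidance and Wnt receptors 51.7% lower. Label colours separate transcription factors, kinases and phosphatases, receptors and channels, secreted factors, and pathways.

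Gene length moved with these differences in every class. Among genes spanning over 200 kb, 39 of 61 transcription factors fell and 5 rose. The numbers lower and higher were 63 and 4 of 88 kinases and phosphatases, 90 and 3 of 116 receptors and channels, and 36 and 1 of 49 secreted factors. Over all protein-coding genes of that length, 841 of 1223 (68.8%) fell and 55 (4.5%) rose. Genes of 10 to 50 kb went the other way: 51 transcription factors rose and 30 fell of 160, 77 kinases and phosphatases rose and 23 fell of 170, 64 receptors and channels rose and 29 fell of 169, and 75 secreted factors rose and 36 fell of 187. In protein-coding genes of 10 to 50 kb, 35% rose and 16.8% fell. Long receptors and long secreted factors had medians of -1.24 and -1.31, below the -0.69 of all long protein-coding genes, and this difference was not tested. When each library was corrected for the length and GC content of its genes with a smooth curve, receptors and channels still had 165 lower and 112 higher, while kinases and phosphatases turned to 142 lower and 159 higher. The span of a gene is given below where it is long. Where a log2 fold change is printed, the corrected one follows if it differs by more than 1.5-fold from the uncorrected one. Long genes given in CPM alone have no corrected value printed, and its absence there says nothing about the correction. What part length has in a result was not tested.

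**Figure D2:**
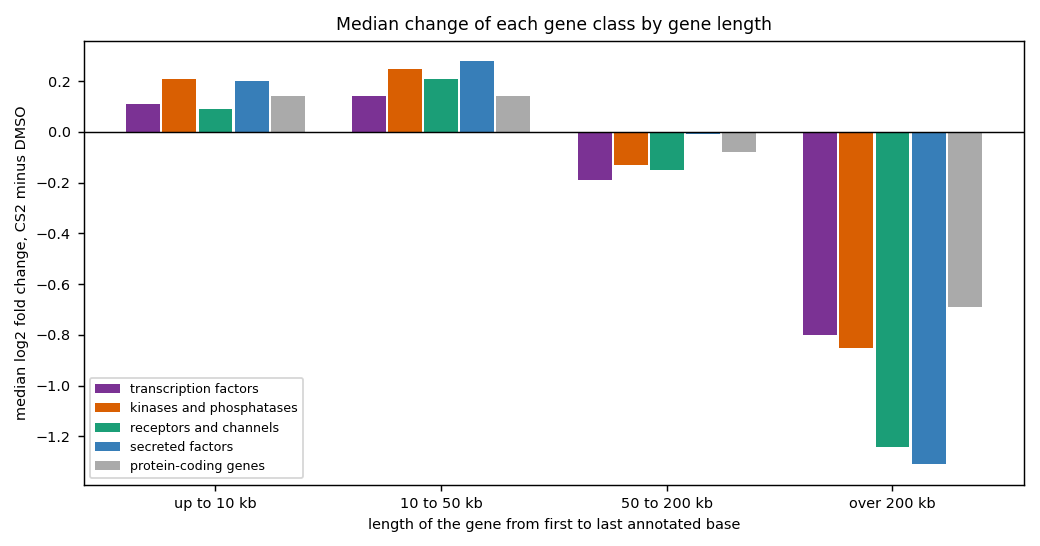
Median log2 fold change with CS2 against DMSO (vertical axis) of the tested members of each class by the length of the gene in 4 bins. Medians are above 0 for genes up to 50 kb and lie between -0.69 and -1.31 for genes over 200 kb.

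Counts of some named genes are uncertain because reads may be shared with other genes, and it is not known here whether the counting used strand. The share of exon bases that overlap another gene exceeds 10% for BTG1 (17.1%), CDK2 (16.8%), CDK4 (43.2%), CNTNAP1 (12.3%), DDIT3 (39.6%), DUSP6 (40.5%), EFNA3 (44.7%), FGF14 (33.2%), HCN3 (13.5%), HEXIM1 (14.4%), IER5L (39.2%), JUNB (14.2%), MAPK12 (29.3%), MASTL (12.2%), NKX2-1 (12.7%), NR4A1 (10.3%), PENK (20.1%), PLK1 (12.5%), SERPINE3 (30.3%), TGFB2 (26.6%) and XPC (30.4%). The share of the 50-base windows of a gene's transcripts that also occur in other genes exceeds 10% for ATF4 (26.6%), BMPR1A (19.5%), EFNA3 (52.4%), MAPK12 (14.7%), TGFB2 (24.1%) and USP18 (23.1%).

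Among transcription factors, basic leucine zipper proteins stood out by their increases. Of 47 tested, 23 (48.9%) rose and 8 (17%) fell, with a median log2 fold change of 0.28, and after correction for length and GC content 21 rose and 8 fell. FOS and JUN proteins, which pair to form the factor AP-1, were higher as a whole: 6 of 6 tested rose, namely FOS, FOSB, FOSL2, JUN, JUNB and JUND. FOS stood at 4.39, 4.96 and 4.22 CPM in the DMSO libraries and at 16.4, 16.6 and 11.7 in the CS2 libraries (log2 fold change 1.72 ± 0.15 SE, adjusted p = 2.12e-08). Every CS2 library was above every DMSO library, and replicate 3 was the lowest with CS2. JUNB rose from 55 ± 8.5 to 91.3 ± 8.6 CPM (log2 fold change 0.73 ± 0.11 SE, adjusted p = 1.22e-05), and JUN by a smaller step from 81.9 ± 3.4 to 104 ± 6.1 CPM (log2 fold change 0.34 ± 0.09 SE, adjusted p = 0.00507). FOSB, FOSL2 and JUND were less stable. FOSB was not called with DMSO replicate 2 left out (log2 fold change 0.95), nor with DMSO replicate 3 (1.29) or CS2 replicate 3 (1.08) left out. FOSL2 lost it without DMSO replicate 2 or 3 (0.29 each) or CS2 replicate 2 (0.30). JUND lost it with DMSO replicate 2 (0.22) or DMSO replicate 3 (0.25), or CS2 replicate 3 (0.19) left out. FOSL2 and JUND also lost it after correction for length and GC content (0.23 and 0.15).

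ATF-type leucine zippers split. ATF3, a stress-induced factor, was at 8.03, 6.65 and 6.15 CPM with DMSO and at 25.5, 22.2 and 19.8 with CS2 (log2 fold change 1.70 ± 0.13 SE, adjusted p = 1.72e-09), with no overlap between the groups. With FB23-2 it was at 63.8, 62.6 and 77.1 CPM, above every CS2 library (log2 difference -1.59 ± 0.12 SE, adjusted p = 7.83e-10). ATF4, the central factor of the integrated stress response, went the other way with CS2, from 374, 318 and 322 to 235, 215 and 236 CPM (log2 fold change -0.56 ± 0.08 SE, adjusted p = 8.17e-06). In the FB23-2 libraries ATF4 stood at 809, 920 and 833 CPM, so the lowest of them was above all DMSO and CS2 libraries. DDIT3, a target of ATF4 that encodes CHOP, rose with CS2 from 14.9 ± 0.73 to 27.8 ± 2.4 CPM and was at 85.3 ± 7.8 with FB23-2. TRIB3, a pseudokinase induced with CHOP, was 5.16 ± 0.78 CPM with DMSO, 9.16 ± 1.7 with CS2 and 166 ± 9.4 with FB23-2 (log2 difference -4.18 ± 0.13 SE, adjusted p = 1.87e-14). ATF3, DDIT3 and TRIB3 thus rose with CS2 while ATF4 fell. CREB3L2, a leucine zipper factor of the endoplasmic reticulum membrane, fell from 42.3 ± 1.8 to 19.2 ± 0.85 CPM (log2 fold change -1.14 ± 0.11 SE, adjusted p = 6.12e-08), and FB23-2 libraries averaged 64.

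STAT and IRF factors, which relay cytokine and interferon signals, included several increases. STAT6, which acts below the receptors of interleukin-4 and interleukin-13 (chromosome 12, 57095408 to 57132139, minus strand, GRCh38), had 1.16, 0.827 and 1.31 CPM with DMSO and 8.08, 7.78 and 7.85 with CS2 (log2 fold change 2.82 ± 0.23 SE, adjusted p = 4.86e-09). This was the largest increase among the transcription factors that met the level asked of a named gene, and the FB23-2 libraries averaged 1.5 ± 0.52 CPM. STAT2 rose from 36.6, 41.2 and 36.2 to 95.3, 76.7 and 66.4 CPM (log2 fold change 1.07 ± 0.14 SE, adjusted p = 1.79e-05). STAT3 did not pass at 226 ± 13 against 233 ± 6.5 CPM (adjusted p = 0.631). IRF7, the factor that amplifies interferon production, went from 6.13, 4.04 and 5.75 to 14.6, 14.2 and 11.9 CPM (log2 fold change 1.34 ± 0.15 SE, adjusted p = 3.74e-07). IRF2, which represses interferon responses, fell from 11.4, 9.51 and 9.06 to 3.74, 2.62 and 4.09 CPM (log2 fold change -1.52 ± 0.20 SE, adjusted p = 5.29e-06). IRF3, IRF4 and IRF9 did not pass. NF-kB members moved less: NFKB2 rose from 4.56 ± 1.1 to 8.27 ± 0.57 CPM and RELA from 92.3 ± 4.7 to 129 ± 4. The list that holds these families as a whole had 18 (19.4%) of 93 higher and 29 (31.2%) lower. Among its decreases were TEAD1, the DNA-binding partner of the Hippo effector YAP1, from 537 ± 41 to 277 ± 12 CPM (log2 fold change -0.96 ± 0.08 SE, adjusted p = 9.11e-09; 269.9 kb, corrected -0.39), and NFIB, an oncogene of small cell lung cancer in mice, from 238 ± 9.1 to 118 ± 2.6 (log2 fold change -1.01 ± 0.08 SE, adjusted p = 2.26e-09; 317.1 kb, corrected -0.35). YAP1 itself had no counts.

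Homeobox factors and developmental zinc fingers had more decreases than increases, though most did not fall. Of 103 homeobox genes, 37 (35.9%) fell and 15 (14.6%) rose. Their median span was 11.1 kb and their median log2 fold change was -0.02. The genes of the HOX clusters had 8 of 28 lower and 6 higher. TSHZ1 fell from 244 ± 7.5 to 119 ± 3.4 CPM (log2 fold change -1.04 ± 0.09 SE, adjusted p = 6.93e-09; 79.2 kb). TSHZ2 fell from 6.66, 5.72 and 7.46 to 0.973, 0.771 and 1.6 (log2 fold change -2.57 ± 0.22 SE, adjusted p = 9.42e-09; 522.9 kb, corrected -1.62), which is the largest decrease among the transcription factors named by the rule. HOXC10 and MSX2 rose, to 59.5 ± 5.2 from 40.1 ± 2.2 CPM and to 52.5 ± 4.5 from 34.4 ± 2.9 CPM. Of 81 zinc finger factors of the KLF, EGR, GATA and GLI type, 32 (39.5%) fell and 10 (12.3%) rose. SP1, which binds GC-rich promoters, is only 36.3 kb long and fell from 136, 141 and 147 to 71.3, 72.3 and 79.2 CPM (log2 fold change -0.93 ± 0.11 SE, adjusted p = 1.16e-06). Its relative SP2 (32.8 kb) fell from 41, 43.6 and 47.1 to 16.7, 16.8 and 16.7 CPM (log2 fold change -1.39 ± 0.12 SE, adjusted p = 9.68e-09). MECOM, a regulator of blood stem cells, fell from 50.3 ± 3 to 16 ± 1.4 CPM (580.1 kb). GATA2 rose from 16.8 ± 2.5 to 35.1 ± 3.2 (log2 fold change 1.06 ± 0.12 SE, adjusted p = 3.53e-07). For SP1 and SP2 the 3 CS2 libraries lay close together and far below all DMSO libraries.

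Forkhead and RFX factors that control cilia did not move together. FOXJ1, the master regulator of motile cilia, was low at 0.816, 0.763 and 1.24 CPM with DMSO and reached 4.42, 5.84 and 6.02 with CS2 (log2 fold change 2.50 ± 0.25 SE, adjusted p = 1.20e-07), against 0.119, 0.0719 and 0.233 with FB23-2, where all libraries were below DMSO. RFX2 rose from 9.08, 8.24 and 9.86 to 23, 21.4 and 21.2 CPM (log2 fold change 1.27 ± 0.11 SE, adjusted p = 1.27e-08) and spans 206.4 kb. RFX3 fell from 80.8, 89.4 and 86.7 to 16.6, 17.3 and 17.7 CPM (log2 fold change -2.32 ± 0.10 SE, adjusted p = 1.64e-12; 307.7 kb), and FB23-2 libraries, at 105 ± 15 CPM, were not lower than DMSO (log2 difference -2.62 ± 0.10 SE, adjusted p = 2.12e-13 between CS2 and FB23-2). SOX2, a stem cell factor amplified in some small cell tumours, fell from 367 ± 22 to 246 ± 7.5 CPM (log2 fold change -0.57 ± 0.09 SE, adjusted p = 4.59e-05) and spans only 2.5 kb.

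Nuclear receptors were close to the background in number, with 11 (26.8%) of 41 higher and 10 (24.4%) lower, but 6 of the decreases and 1 of the increases exceeded 2-fold. NR2F1, an orphan receptor of neural development, was at 990, 1040 and 1050 CPM with DMSO and at 513, 504 and 563 with CS2 (log2 fold change -0.96 ± 0.08 SE, adjusted p = 8.14e-09), a decrease in an 11.4 kb gene. RORB fell from 15.3, 19.2 and 15.8 to 3.48, 3.19 and 2.5 CPM (log2 fold change -2.45 ± 0.15 SE, adjusted p = 1.45e-10; 195.8 kb). PPARG, the receptor of fat-cell differentiation, fell from 4 ± 0.27 to 0.858 ± 0.14 CPM (log2 fold change -2.21 ± 0.21 SE, adjusted p = 5.52e-08; 147.0 kb). The thyroid hormone receptors moved apart: THRA rose from 37.9, 32.2 and 35.3 to 67.2, 70.6 and 63.2 CPM (log2 fold change 0.93 ± 0.09 SE, adjusted p = 1.24e-07; 35.6 kb). THRB fell from 14.4, 15.5 and 15.4 to 3.12, 5.37 and 4.62 (log2 fold change -1.79 ± 0.15 SE, adjusted p = 1.23e-08; 378.6 kb, corrected -1.04). All 3 NR4A receptors, which are immediate early genes, rose, with NR4A1 at 29.6 ± 2.9 against 21 ± 0.91 CPM and NR4A2 at 17 ± 4.2 against 9.91 ± 0.15, and NR4A3 lost its call with DMSO replicate 2 (a log2 fold change of 0.65) or DMSO replicate 3 (0.67), or CS2 replicate 2 (0.65) left out.

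Lineage factors of the tumour changed by less than 2-fold. INSM1 fell from 859 ± 79 to 703 ± 39 CPM (log2 fold change -0.29 ± 0.08 SE, adjusted p = 0.00435). FOXA2 fell from 162 ± 5.1 to 122 ± 3.9 (log2 fold change -0.41 ± 0.09 SE, adjusted p = 5.69e-04). NKX2-1, a lung lineage factor, rose from 8.35 ± 0.41 to 13 ± 1.2 CPM (log2 fold change 0.64 ± 0.14 SE, adjusted p = 9.09e-04). MYCN fell from 1270, 1200 and 1220 to 1010, 797 and 784 CPM (log2 fold change -0.51 ± 0.10 SE, adjusted p = 2.41e-04), where CS2 replicate 1 was closer to DMSO than the other CS2 libraries. NEUROD1 and MYC were low in both groups, at 0.584 and 2.23 CPM with DMSO, and neither passed (adjusted p = 0.481 and 0.138). E2F factors of the S-phase entry step rose in 4 of 8 (E2F1, E2F2, E2F7 and E2F8) and fell in 0. E2F2 lost its call after correction for length and GC content, and E2F1 was at 313, 287 and 297 CPM with CS2 against 177, 171 and 180 (log2 fold change 0.76 ± 0.08 SE, adjusted p = 8.65e-08).

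**Figure D3:**
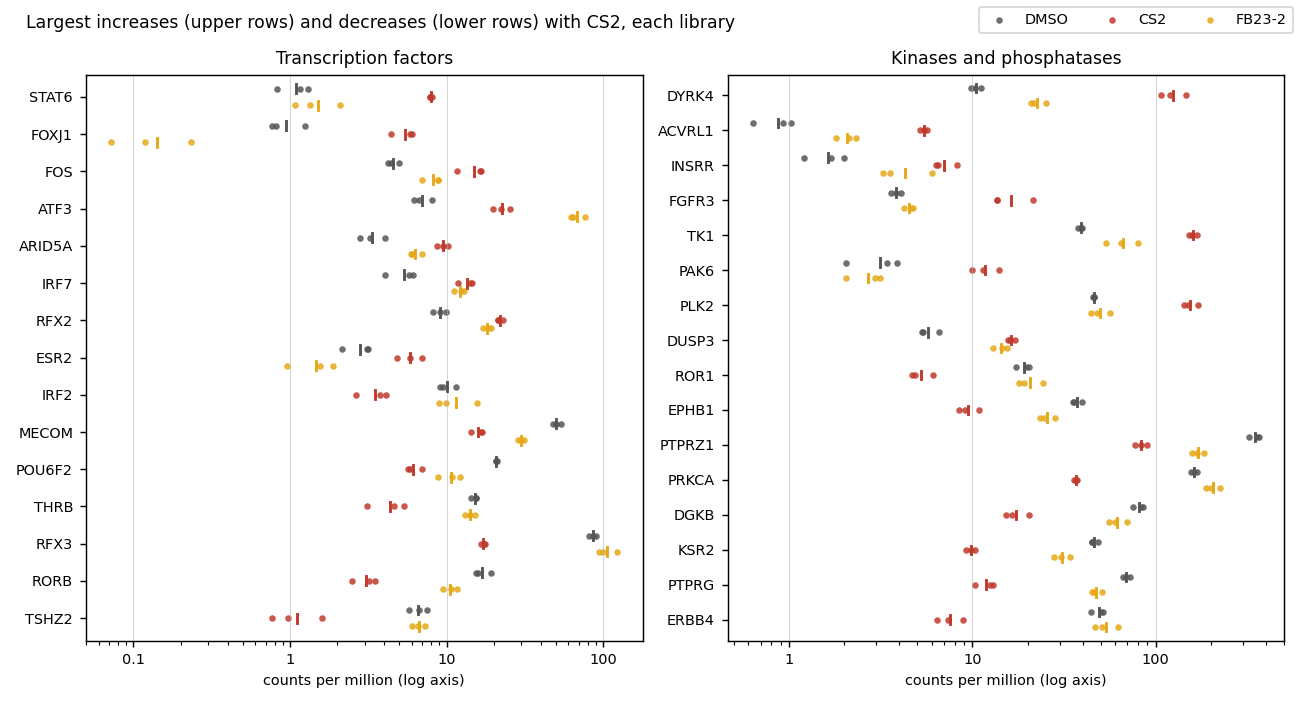
CPM on a log axis in each library of the 8 transcription factors (left) and 8 kinases and phosphatases (right) with the largest increases (upper rows) and, among the 8 of each with the largest decreases (lower rows), of 7 transcription factors and 8 kinases and phosphatases, for DMSO (grey), CS2 (red) and FB23-2 (yellow); points are libraries and ticks are means. In every row the CS2 libraries lie clear of the DMSO libraries, for example PRKCA at 35.8 to 37.1 against 155 to 167 CPM.

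Receptor tyrosine kinases showed increases and decreases of large size. Of 42 tested, 13 (31%) rose and 14 (33.3%) fell, 7 and 10 of them more than 2-fold. FGFR3, a receptor of fibroblast growth factors (chromosome 4, 1793293 to 1808872, plus strand, GRCh38), was at 3.82, 4.07 and 3.62 CPM with DMSO and at 21.3, 13.6 and 13.7 with CS2 (log2 fold change 2.08 ± 0.17 SE, adjusted p = 5.04e-09). The FB23-2 libraries were at 4.77, 4.24 and 4.61 CPM (log2 difference 1.84 ± 0.17 SE, adjusted p = 1.28e-08). FGFR1 and FGFR4 rose too, to 34.6 ± 2.4 from 23.8 ± 2.1 CPM and to 4.44 ± 1.2 from 1.84 ± 0.14 CPM. INSRR, a relative of the insulin receptor that senses alkaline pH, rose from 1.21, 2 and 1.69 to 8.2, 6.37 and 6.49 CPM (log2 fold change 2.11 ± 0.24 SE, adjusted p = 4.07e-07). DDR1, a collagen receptor, rose from 48.4 ± 5 to 85.5 ± 5.2 CPM (log2 fold change 0.82 ± 0.11 SE, adjusted p = 4.20e-06). Within the ERBB family, ERBB4 fell from 44.5, 50.3 and 51.6 to 6.43, 7.35 and 8.88 CPM (log2 fold change -2.69 ± 0.13 SE, adjusted p = 4.15e-12; 1163.1 kb, corrected -1.19). ERBB2 rose from 3.04 ± 0.57 to 5.94 ± 0.61 CPM (log2 fold change 0.96 ± 0.18 SE, adjusted p = 1.55e-04). ERBB3 rose from 0.967 ± 0.097 to 1.97 ± 0.76, a call lost without CS2 replicate 1 (log2 fold change 0.69). ROR1 and EPHB1 fell, to 5.23 ± 0.78 from 19.1 ± 1.6 CPM and to 9.53 ± 1.3 from 37 ± 2.2 CPM, and span 407.5 kb and 662.7 kb. KIT, which classic small cell lines often express, did not pass, at 118, 127 and 123 CPM with DMSO and 104, 114 and 108 with CS2 (adjusted p = 0.13). RET fell from 5.17 ± 0.29 to 2.29 ± 0.21 CPM and was at 0.599 ± 0.22 with FB23-2.

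Receptor serine/threonine kinases of the TGF-beta family were led by ACVRL1, the endothelial receptor ALK1, which rose from 1.03, 0.636 and 0.933 to 5.66, 5.2 and 5.46 CPM (log2 fold change 2.63 ± 0.22 SE, adjusted p = 6.35e-09). BMPR2 fell from 73, 74.2 and 79.6 to 34, 37.3 and 39.5 CPM (log2 fold change -1.03 ± 0.10 SE, adjusted p = 3.85e-08; 190.8 kb, corrected -0.64). In this small list 5 of 14 rose (ACVRL1, ACVR1C, TGFBR1, ENG and BAMBI) and 5 fell (BMPR2, BMPR1A, BMPR1B, ACVR2B and TGFBR3). Of these, ENG, BAMBI and TGFBR3 are receptor proteins of the family that are not themselves kinases. The call of ENG was lost without CS2 replicate 1 (log2 fold change 0.70) and that of BAMBI without DMSO replicate 2 (0.31). TGFBR1 was not called without any 1 DMSO library (0.21 to 0.23) or CS2 replicate 2 (0.17). TGFBR3 was not called without DMSO replicate 1 (-0.63) or CS2 replicate 3 (-0.57), nor after correction for length and GC content (-0.25). BMPR1A was not called without DMSO replicate 2 (-0.21), DMSO replicate 3 (-0.28), CS2 replicate 1 (-0.20) or CS2 replicate 2 (-0.28). After correction for length and GC content it was at 0.09 and did not pass (adjusted p = 0.368).

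Protein kinases of the AGC and calcium/calmodulin groups were more often lower, 30 (40%) of 75, than higher, 20 (26.7%). PRKCA, the classical protein kinase C alpha (chromosome 17, 66302636 to 66810743, plus strand, GRCh38), was at 161, 155 and 167 CPM with DMSO and at 35.8, 36.8 and 37.1 with CS2 (log2 fold change -2.14 ± 0.08 SE, adjusted p = 2.39e-13; 508.1 kb, corrected -1.21). In the FB23-2 libraries it stood at 189, 224 and 201 CPM, above DMSO in all 3 (log2 difference -2.49 ± 0.08 SE, adjusted p = 4.92e-14). PRKCB, another classical isoform, fell from 303 ± 6.5 to 153 ± 7.8 CPM and spans 384.7 kb. CAMK1D fell from 141 ± 2.2 to 50.8 ± 1.2 CPM (log2 fold change -1.48 ± 0.07 SE, adjusted p = 7.58e-12, corrected -0.60). DCLK1, a marker of tuft and neuronal cells, fell from 130 ± 3 to 57.5 ± 2.4 (log2 fold change -1.18 ± 0.08 SE, adjusted p = 4.04e-10, corrected -0.44). SGK1, an immediate early gene, rose from 7.53, 6.33 and 7.53 to 18, 16.6 and 12.1 CPM (log2 fold change 1.12 ± 0.14 SE, adjusted p = 2.25e-06).

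MAP kinase cascades were near the background in number, with 14 (20.9%) of 67 higher and 20 (29.9%) lower. MAPK3, which encodes ERK1, rose from 35.3, 32.6 and 34.9 to 54.2, 56.7 and 53.2 CPM (log2 fold change 0.67 ± 0.09 SE, adjusted p = 3.93e-06), and MAPK12 (p38 gamma) rose from 44.8 ± 3.4 to 85.8 ± 11. KSR2, a scaffold of the RAF to ERK pathway, fell from 48.4, 44.7 and 44.8 to 10.3, 9.22 and 9.88 CPM (log2 fold change -2.23 ± 0.10 SE, adjusted p = 3.17e-12; 516.0 kb, corrected -1.31). MAPK10, the neuronal JNK3, fell from 26.9 ± 2.8 to 7.61 ± 0.95 CPM (log2 fold change -1.82 ± 0.12 SE, adjusted p = 4.59e-10; 604.6 kb, corrected -0.76). MAPK3 and MAPK12, which rose, span 9.4 kb and 16.4 kb.

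Cell cycle kinases had 16 (23.5%) of 68 higher and 26 (38.2%) lower. PLK2, a centriole kinase and p53 target, was at 45.4, 46.2 and 46.2 CPM with DMSO and 150, 170 and 143 with CS2 (log2 fold change 1.75 ± 0.09 SE, adjusted p = 2.12e-11), against 48.1, 44.3 and 56.6 with FB23-2. PLK1, the mitotic kinase, fell from 213, 195 and 209 to 121, 122 and 112 CPM (log2 fold change -0.80 ± 0.07 SE, adjusted p = 3.96e-08) and was lower still with FB23-2, at 64.8 ± 3.4 CPM. CDK1 rose from 158, 162 and 149 to 208, 255 and 246 CPM (log2 fold change 0.60 ± 0.08 SE, adjusted p = 4.54e-06). CDK2 rose from 98.2 ± 3.4 to 133 ± 2.2 (log2 fold change 0.44 ± 0.07 SE, adjusted p = 3.65e-05). MASTL, a kinase that restrains a phosphatase during mitosis, rose from 24.3 ± 0.81 to 56.6 ± 4.5 CPM (log2 fold change 1.22 ± 0.12 SE, adjusted p = 4.22e-08). Of 19 CDK genes, 10 fell and 4 rose (CDK1, CDK2, CDK9 and CDK10). CDK10 was not called with DMSO replicate 1 (log2 fold change 0.28) or CS2 replicate 1 (0.24) left out, with scaling by library size alone (0.38) or after correction for length and GC content (0.27). CDK4 did not pass at 174 ± 13 against 156 ± 9.2 CPM (adjusted p = 0.199). CDK14 fell from 69.5 ± 2.3 to 32.3 ± 2.3 CPM (log2 fold change -1.11 ± 0.10 SE, adjusted p = 1.62e-08; 744.2 kb, corrected 0.08). After correction for length and GC content it did not pass (adjusted p = 0.387). The phosphatases CDC25A and CDC25B, which activate CDKs, rose from 65.5 ± 2.7 to 104 ± 1.4 CPM and from 396 ± 12 to 526 ± 45 CPM.

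Other kinases with large changes lay in several groups. DYRK4, a dual-specificity kinase best known from testis, rose 11.8-fold, from 9.89, 10.4 and 11.2 to 147, 119 and 107 CPM (log2 fold change 3.56 ± 0.12 SE, adjusted p = 1.67e-13), with FB23-2 at 25.2, 20.9 and 21.7. GSK3B, a kinase of Wnt and insulin signalling, fell from 126, 130 and 132 to 47, 53.2 and 54.8 CPM (log2 fold change -1.33 ± 0.09 SE, adjusted p = 3.97e-10; 273.1 kb, corrected -0.76). TYK2, the JAK kinase of the interferon receptor, rose from 120, 119 and 131 to 257, 216 and 200 CPM (log2 fold change 0.86 ± 0.10 SE, adjusted p = 7.70e-07), whereas FB23-2 libraries averaged 120. IRAK1, a kinase below Toll-like receptors, rose from 162 ± 11 to 268 ± 4.8 CPM (log2 fold change 0.72 ± 0.10 SE, adjusted p = 3.71e-06). PIK3R1, the regulatory subunit of PI3-kinase, fell from 252 ± 12 to 129 ± 11 CPM (log2 fold change -0.96 ± 0.08 SE, adjusted p = 1.45e-08; 86.1 kb). DGKB, a neuronal diacylglycerol kinase, fell from 75.2, 84.9 and 82.6 to 16.4, 15.2 and 20.4 CPM (log2 fold change -2.22 ± 0.11 SE, adjusted p = 9.04e-12; 829.7 kb, corrected -0.95). ADK, which phosphorylates adenosine, fell from 74.8 ± 3.4 to 26.1 ± 4.2 CPM (log2 fold change -1.52 ± 0.11 SE, adjusted p = 9.58e-10; 558.1 kb, corrected -0.53).

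Phosphatases divided by type. Of 19 receptor-type tyrosine phosphatases, 12 fell and 5 rose (PTPRE, PTPRF, PTPRN, PTPRS and PTPRT), with a median log2 fold change of -0.76. PTPRF was not called without DMSO replicate 2 (log2 fold change 0.21), and PTPRS not without DMSO replicate 1 (0.32) or DMSO replicate 2 (0.29), or CS2 replicate 1 (0.20). PTPRZ1, a glial and neuronal phosphatase that binds pleiotrophin and midkine, was at 322, 366 and 358 CPM with DMSO and at 77.2, 82.7 and 89.1 with CS2 (log2 fold change -2.07 ± 0.08 SE, adjusted p = 6.32e-13; 188.9 kb). PTPRG fell from 65.9, 68.4 and 72 to 10.3, 13 and 12.4 CPM (log2 fold change -2.53 ± 0.10 SE, adjusted p = 6.32e-13; 736.0 kb, corrected -1.35). PTPRK fell from 279 ± 19 to 78.4 ± 6.6 (log2 fold change -1.83 ± 0.08 SE, adjusted p = 2.27e-12; 551.9 kb, corrected -0.84). PTPRD fell from 184 ± 18 to 63.3 ± 3.5 CPM (log2 fold change -1.54 ± 0.09 SE, adjusted p = 3.68e-11, corrected 0.47), but its 2298.5 kb make it one of the longest human genes. Its direction turned after correction for length and GC content, where it passed as higher (adjusted p = 9.03e-06). PTPRT, at 1117.2 kb, rose from 3.15 ± 0.68 to 6.67 ± 0.34 CPM (log2 fold change 1.07 ± 0.20 SE, adjusted p = 1.86e-04, corrected 2.52). The DUSP phosphatases, which switch off MAP kinases and other substrates, had 8 of 21 higher and 4 lower (DUSP6, DUSP7, DUSP16 and DUSP22), and DUSP6 lost its call without any 1 DMSO library (log2 fold change -0.47 to -0.39), CS2 replicate 1 (-0.43) or CS2 replicate 2 (-0.38), and also with no filter on low counts (-0.44). DUSP3 rose from 6.55, 5.28 and 5.4 to 15.7, 17 and 16 CPM (log2 fold change 1.50 ± 0.13 SE, adjusted p = 8.04e-09). DUSP14 rose from 18 ± 1.8 to 33.6 ± 2.5 (log2 fold change 0.90 ± 0.10 SE, adjusted p = 6.52e-07). PTPN6, the cytoplasmic phosphatase SHP-1, rose from 31.3 ± 3.1 to 60 ± 2.7 CPM (log2 fold change 0.94 ± 0.09 SE, adjusted p = 6.86e-08).

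Adhesion proteins held 58 of the 192 decreases among receptors, channels and adhesion proteins. Of 118 cadherin, integrin and synaptic adhesion genes, 58 (49.2%) fell and 25 (21.2%) rose, with a median span of 106 kb, and after correction for length and GC content 48 fell and 31 rose. Among contactins, NCAM and DSCAM genes 9 of 12 fell and CNTNAP1 rose. NCAM1, the antigen CD56 that marks small cell lung cancer, was at 518, 547 and 565 CPM with DMSO and at 299, 301 and 307 with CS2 (log2 fold change -0.85 ± 0.08 SE, adjusted p = 3.80e-08; 317.2 kb, corrected -0.21), and FB23-2 libraries, at 622, 760 and 633, were all above DMSO. NCAM2 fell from 68.9 ± 5.7 to 18.6 ± 1.6 CPM (log2 fold change -1.89 ± 0.12 SE, adjusted p = 2.41e-10; 545.0 kb, corrected -0.88). CNTN1 fell from 193 ± 10 to 74.2 ± 4.4 (log2 fold change -1.38 ± 0.08 SE, adjusted p = 8.74e-11; 380.0 kb, corrected -0.61). DSCAM, an axon recognition protein, fell from 58, 57.2 and 63.4 to 9.08, 7.51 and 8.92 CPM (log2 fold change -2.81 ± 0.10 SE, adjusted p = 1.67e-13; 836.1 kb, corrected -1.58). MCAM, a cell adhesion protein of vessels and melanoma, rose from 12.9, 15.4 and 13.4 to 61.6, 55 and 48.1 CPM (log2 fold change 1.98 ± 0.11 SE, adjusted p = 5.53e-11) and was at 44.5, 49 and 56.2 CPM with FB23-2, overlapping CS2 (log2 difference 0.14 ± 0.11 SE, adjusted p = 0.286). Neuroligins divided, as NLGN3 (26.4 kb) rose from 1.52 ± 0.33 to 5.02 ± 1.2 CPM and NLGN1 (890.4 kb) fell from 49.6 ± 6.7 to 5.63 ± 0.64. CDH1, the epithelial cadherin, rose from 8.26, 7.35 and 7.59 to 16.6, 15.8 and 13.3 CPM (log2 fold change 0.98 ± 0.13 SE, adjusted p = 2.74e-06). CDH2, the neural cadherin, fell from 8.51 ± 0.9 to 3.32 ± 0.34 (log2 fold change -1.36 ± 0.16 SE, adjusted p = 6.79e-07; 226.5 kb, corrected -0.89). EPCAM did not pass (241 ± 17 against 216 ± 7.2 CPM, adjusted p = 0.109). A long gene that went against the trend was PCDH9, a protocadherin of 927.6 kb, which rose from 538, 637 and 635 to 916, 1020 and 886 CPM (log2 fold change 0.64 ± 0.09 SE, adjusted p = 4.86e-06, corrected 2.01).

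Axon guidance and Wnt receptors had the largest lower share of the receptor and channel lists, 30 (51.7%) of 58, against 9 (15.5%) higher. DCC, the netrin receptor, was at 96.9, 105 and 110 CPM with DMSO and at 19.3, 19 and 19.7 with CS2 (log2 fold change -2.43 ± 0.09 SE, adjusted p = 1.67e-13; 1195.7 kb, corrected -0.90). ROBO2, a receptor of slit proteins, fell from 112, 121 and 121 to 17.7, 15.4 and 19.5 CPM (log2 fold change -2.75 ± 0.10 SE, adjusted p = 1.67e-13; 1743.3 kb, corrected -0.94). ROBO1, at 1170.6 kb, fell from 650 ± 51 to 250 ± 14 CPM (log2 fold change -1.38 ± 0.08 SE, adjusted p = 8.99e-11, corrected 0.13). After correction for length and GC content it did not pass (adjusted p = 0.115). All 3 LINGO genes tested (LINGO1, LINGO2 and LINGO3) fell, and LINGO1 was not called when leaving out DMSO replicate 1 (log2 fold change -0.37), DMSO replicate 3 (-0.40), CS2 replicate 1 (-0.40) or CS2 replicate 2 (-0.37). LINGO1 also lost its call after correction for length and GC content (-0.13). LINGO3 spans only 2.2 kb and was at 35.8, 32.4 and 32 CPM with DMSO and at 4.78, 5.9 and 4.96 with CS2 (log2 fold change -2.68 ± 0.12 SE, adjusted p = 2.07e-12). Its FB23-2 libraries overlapped those of CS2, at 4.92, 4.84 and 5.22 CPM (log2 difference 0.06 ± 0.13 SE, adjusted p = 0.701). PLXNC1, a semaphorin receptor, fell from 165 ± 10 to 63.9 ± 4.6 CPM (log2 fold change -1.37 ± 0.08 SE, adjusted p = 9.07e-11), while PLXNA3 and PLXNB2 rose, PLXNA3 from 59.1, 62.1 and 73.6 to 186, 140 and 122 CPM and PLXNB2 from 386 ± 12 to 556 ± 51.

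Ion channels followed the same split. Of 16 ionotropic glutamate receptor subunits tested, 11 fell and 0 rose, with a median of -0.77. GRIK2, a kainate receptor subunit, fell from 18.9, 21.8 and 23.2 to 5.48, 4.8 and 5.59 CPM (log2 fold change -2.01 ± 0.12 SE, adjusted p = 8.15e-11; 888.8 kb, corrected -0.69). GRIA2, the AMPA subunit that sets calcium passage, fell from 106, 154 and 152 to 87.6, 86.5 and 94.7 (log2 fold change -0.62 ± 0.11 SE, adjusted p = 1.53e-04; 161.9 kb, corrected -0.29). GRIN1, the obligate NMDA subunit, did not pass at 6.84 ± 1.1 against 6.03 ± 1 CPM (adjusted p = 0.466). GABRA3, a GABA-A receptor subunit, fell from 22.5, 22.7 and 24.3 to 3.24, 3.29 and 3.03 CPM (log2 fold change -2.86 ± 0.14 SE, adjusted p = 6.46e-12; 285.1 kb). GABRQ, on the same chromosome, rose from 10.3, 8.71 and 10.5 to 22.6, 27.7 and 20.8 (log2 fold change 1.26 ± 0.13 SE, adjusted p = 1.67e-07; 19.4 kb). Voltage-gated channels had 36 (38.7%) of 93 lower and 16 (17.2%) higher. KCNQ3, a subunit of the neuronal M-current, fell from 65.6, 69.4 and 68 to 16.8, 15.7 and 19.5 CPM (log2 fold change -1.96 ± 0.11 SE, adjusted p = 3.63e-11; 360.2 kb, corrected -1.24). CACNA2D1, the calcium channel subunit bound by gabapentin, fell from 223 ± 25 to 82.1 ± 8.2 (log2 fold change -1.44 ± 0.10 SE, adjusted p = 3.55e-10; 497.4 kb, corrected -0.50). HCN3, a pacemaker channel, rose from 46.5, 43.8 and 45.8 to 115, 95.4 and 92.6 CPM (log2 fold change 1.15 ± 0.09 SE, adjusted p = 3.75e-09). KCNAB2, an auxiliary potassium channel subunit, rose from 16.2 ± 1.6 to 38.2 ± 1.5 (log2 fold change 1.23 ± 0.10 SE, adjusted p = 4.63e-09). KCNA1 did not pass at 236 ± 15 against 223 ± 17 CPM (adjusted p = 0.39).

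G protein-coupled receptors were nearer to the background. Neurotransmitter and peptide receptors had 14 (19.4%) of 72 higher and 19 (26.4%) lower, and 90 of 162 listed did not pass the filter on low counts. CHRM4, a muscarinic acetylcholine receptor, rose from 45.8, 34.7 and 38.9 to 87.6, 90.2 and 78.3 CPM (log2 fold change 1.10 ± 0.10 SE, adjusted p = 2.01e-08), and the FB23-2 libraries overlapped CS2 at 79.8, 80.9 and 88.9 (log2 difference 0.04 ± 0.10 SE, adjusted p = 0.755). S1PR5, a receptor of sphingosine phosphate, rose from 1.45, 1.53 and 1.44 to 5.98, 5.03 and 6.02 CPM (log2 fold change 1.95 ± 0.20 SE, adjusted p = 1.58e-07), with FB23-2 at 1.25, 1.97 and 1.69. GABBR2, a subunit of the GABA-B receptor, fell from 41.7 ± 2.4 to 19.8 ± 1.4 CPM (log2 fold change -1.08 ± 0.11 SE, adjusted p = 1.35e-07; 421.1 kb, corrected -0.32). OPRD1, the delta opioid receptor, fell from 32.2 ± 1.3 to 17.6 ± 1.3 (log2 fold change -0.87 ± 0.11 SE, adjusted p = 2.16e-06; 59.1 kb). In the adhesion receptor family, ADGRB2 (37.8 kb) rose from 13.8, 13.4 and 15.8 to 35.6, 35.1 and 32.4 CPM and ADGRB3 (754.1 kb) fell from 19.7, 19.4 and 18.3 to 4.51, 3.69 and 5.66.

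Cytokine, TNF and pattern-recognition receptors were the receptor list with more increases, 19 (31.1%) of 61 higher and 12 (19.7%) lower, with a median of 0.20. Their median span was 33.8 kb, and protein-coding genes of 10 to 50 kb had similar shares, 35% higher and 16.8% lower. CNTFR, the receptor of ciliary neurotrophic factor, was at 3.84, 2.16 and 3.95 CPM with DMSO and at 12.4, 13.7 and 11.7 with CS2 (log2 fold change 1.90 ± 0.19 SE, adjusted p = 9.52e-08). FB23-2 libraries were at 10.6, 15.6 and 11.3 CPM and overlapped those of CS2 (log2 difference 0.00 ± 0.17 SE, adjusted p = 0.984). EPOR, the erythropoietin receptor, rose from 4.84, 4.33 and 4.97 to 17.5, 14.4 and 9.55 CPM (log2 fold change 1.55 ± 0.18 SE, adjusted p = 4.77e-07), with CS2 libraries that spread widely. IL17RB and IL17RE, which bind interleukins of the IL-17 family, rose from 22.2 ± 2.6 to 53.1 ± 4.5 CPM and from 6.27 ± 0.32 to 14.9 ± 1.6 CPM. IFNGR1, a chain of the interferon-gamma receptor, rose from 39.2, 40.7 and 36.2 to 61.1, 68.1 and 65.4 CPM (log2 fold change 0.75 ± 0.09 SE, adjusted p = 1.42e-06). CXCR4, a chemokine receptor common on small cell lung cancer cells, did not pass at 113, 97.5 and 91.3 CPM with DMSO and 114, 122 and 102 with CS2 (adjusted p = 0.178).

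**Figure D4:**
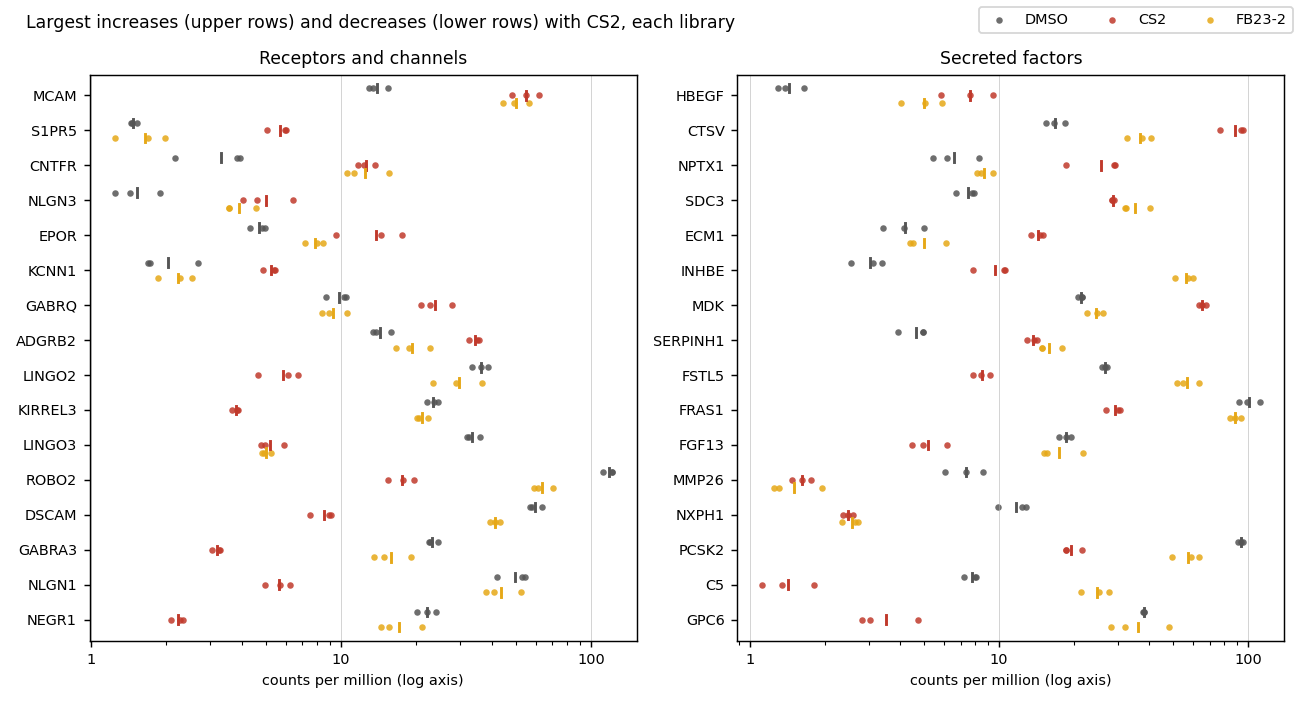
CPM on a log axis in each library of the 8 receptors, channels or adhesion proteins (left) and 8 secreted factors (right) with the largest increases (upper rows) and decreases (lower rows), for DMSO (grey), CS2 (red) and FB23-2 (yellow); points are libraries and ticks are means. C5 libraries lie at 1.12 to 1.8 CPM with CS2, 7.26 to 8.08 with DMSO and 21.4 to 27.7 with FB23-2, so the compounds lie on opposite sides of DMSO.

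Among secreted growth factors 17 (27.4%) of 62 rose and 16 (25.8%) fell. HBEGF, a ligand of the EGF receptor and of ERBB4 (chromosome 5, 140332843 to 140346631, minus strand, GRCh38), was at 1.29, 1.65 and 1.38 CPM with DMSO and at 7.66, 9.46 and 5.82 with CS2 (log2 fold change 2.41 ± 0.21 SE, adjusted p = 1.45e-08). MDK, which encodes midkine, rose from 21.5, 21.6 and 20.7 to 65, 63.6 and 67.6 CPM (log2 fold change 1.62 ± 0.09 SE, adjusted p = 2.98e-11), with all 3 libraries of each group close together, and was at 24.7, 26.2 and 22.6 with FB23-2 (log2 difference 1.42 ± 0.09 SE, adjusted p = 8.54e-11). GRN, the lysosomal and secreted progranulin, rose from 70.7, 71.8 and 75.8 to 163, 159 and 153 CPM (log2 fold change 1.12 ± 0.07 SE, adjusted p = 2.39e-10). PGF, placental growth factor, rose from 1.95 ± 0.18 to 5.14 ± 0.94 CPM (log2 fold change 1.40 ± 0.20 SE, adjusted p = 7.66e-06). VEGFB did not pass (62.1 ± 1.3 against 67.7 ± 6.1 CPM, adjusted p = 0.225). KITLG, the ligand of KIT, did not pass either (108 ± 11 against 107 ± 5.2 CPM, adjusted p = 0.885). The largest decreases of this list were FGF13, from 17.4, 18.6 and 19.5 to 4.48, 4.93 and 6.15 CPM (log2 fold change -1.84 ± 0.15 SE, adjusted p = 6.93e-09; 608.0 kb, corrected -0.78), and FGF14, from 35.7 ± 1.1 to 13.2 ± 0.78 (log2 fold change -1.44 ± 0.10 SE, adjusted p = 5.69e-10; 691.7 kb, corrected -0.29). Both belong to the FGF family by sequence but act inside cells on sodium channels and are not secreted.

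TGF-beta family ligands and antagonists had 15 (40.5%) of 37 lower and 9 (24.3%) higher. GDF15, a stress hormone, rose from 4.66, 3.28 and 3.18 to 10.6, 8.49 and 13.8 CPM (log2 fold change 1.57 ± 0.23 SE, adjusted p = 1.47e-04). INHBE, the inhibin beta E chain, rose from 3.11, 3.4 and 2.55 to 10.5, 7.85 and 10.6 (log2 fold change 1.69 ± 0.14 SE, adjusted p = 1.05e-08). With FB23-2 the levels were far higher, 100, 125 and 79.1 CPM for GDF15 and 60.1, 57.2 and 50.8 for INHBE, above every CS2 library (log2 difference -2.54 ± 0.13 SE, adjusted p = 4.24e-12 for INHBE). LTBP3 and LTBP1, which store latent TGF-beta in the matrix, moved apart. LTBP3 rose from 8.46 ± 0.25 to 19.1 ± 3.6 CPM (log2 fold change 1.18 ± 0.16 SE, adjusted p = 4.36e-06; 20.1 kb). LTBP1 fell from 17.8 ± 0.59 to 6.11 ± 0.84 (log2 fold change -1.54 ± 0.13 SE, adjusted p = 1.01e-08; 452.5 kb, corrected -0.71). TGFB2 fell from 57, 60.6 and 59.5 to 19.7, 23.8 and 20.4 CPM (log2 fold change -1.47 ± 0.14 SE, adjusted p = 1.10e-07), and the FB23-2 libraries were at 15, 24.1 and 15.3 (log2 difference 0.23 ± 0.14 SE, adjusted p = 0.182). BMP2 fell from 14.3 ± 0.56 to 8.43 ± 0.37 CPM (log2 fold change -0.76 ± 0.11 SE, adjusted p = 1.44e-05; 12.6 kb). GREM1, an antagonist of BMPs, rose from 42 ± 2.4 to 64.2 ± 7 (log2 fold change 0.61 ± 0.10 SE, adjusted p = 2.67e-05).

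Guidance cues and synaptic secreted proteins included a whole family that rose. The neuronal pentraxins, which gather glutamate receptors at synapses, rose in 3 of 3: NPTX1 from 8.29, 5.41 and 6.15 to 29.3, 28.8 and 18.5 CPM (log2 fold change 1.95 ± 0.17 SE, adjusted p = 2.35e-08), NPTX2 from 21.1, 18.8 and 20.8 to 46.8, 45.5 and 43 (log2 fold change 1.16 ± 0.11 SE, adjusted p = 3.34e-08), and the membrane form NPTXR from 422, 380 and 399 to 741, 719 and 665 (log2 fold change 0.82 ± 0.08 SE, adjusted p = 5.62e-08). For NPTX2 the FB23-2 libraries, at 19.2, 15.6 and 21 CPM, overlapped DMSO and lay below CS2 (log2 difference 1.28 ± 0.11 SE, adjusted p = 5.13e-09). Slits and netrins had 4 of 7 lower (SLIT2, SLIT3, NTN4 and NTNG1) and 0 higher, with the call of SLIT3 lost after correction for length and GC content. SLIT2, the ligand of ROBO receptors, fell from 84.4, 88 and 92.6 to 35.5, 33.1 and 37.2 CPM (log2 fold change -1.32 ± 0.08 SE, adjusted p = 1.61e-10; 367.3 kb, corrected -0.59). Ephrins had 4 of 8 higher (EFNA1, EFNA3, EFNB1 and EFNB3) and 1 lower. EFNB1 was not called without DMSO replicate 2 (a log2 fold change of 0.24) or DMSO replicate 3 (0.26), or CS2 replicate 1 (0.25). Correction for length and GC content lowered it to 0.08, which did not pass. EFNA1 rose from 4.71 ± 0.71 to 12.1 ± 2.1 CPM (log2 fold change 1.36 ± 0.20 SE, adjusted p = 9.95e-06; 7.4 kb). EFNA5 fell from 40.9 ± 2.3 to 13.9 ± 0.98 (log2 fold change -1.56 ± 0.10 SE, adjusted p = 3.97e-10; 294.0 kb, corrected -0.95). NXPH1, a secreted ligand of neurexins, fell from 9.89, 12.8 and 12.3 to 2.36, 2.48 and 2.59 CPM (log2 fold change -2.23 ± 0.16 SE, adjusted p = 9.39e-10; 319.0 kb). Of the Notch ligands, JAG1 rose from 22.4 ± 1.1 to 38.9 ± 3.3 CPM (log2 fold change 0.79 ± 0.10 SE, adjusted p = 1.06e-06). DLL3, a target of small cell lung cancer therapy, did not pass at 59.4 ± 2.6 against 52.7 ± 3.9 CPM (adjusted p = 0.131).

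Peptide hormones and their granule proteins had 16 (36.4%) of 44 tested higher and 9 (20.5%) lower. Their median span was 9.87 kb, and protein-coding genes up to 10 kb had similar shares, 32.5% higher and 18.5% lower. CHGB, which encodes the granule protein chromogranin B, was at 211, 213 and 212 CPM with DMSO and at 562, 608 and 467 with CS2 (log2 fold change 1.37 ± 0.09 SE, adjusted p = 2.73e-10). FB23-2 libraries stood between, at 249, 285 and 244 CPM (log2 difference 1.07 ± 0.09 SE, adjusted p = 3.85e-09). CHGA, chromogranin A, went slightly the other way, from 624, 582 and 608 to 505, 508 and 500 CPM (log2 fold change -0.26 ± 0.07 SE, adjusted p = 0.00281). VGF and PCSK1N, a granule peptide precursor and a convertase inhibitor, rose from 74.2 ± 7.3 to 129 ± 6.4 CPM and from 51.4 ± 5.4 to 81.9 ± 5 CPM. Both prohormone convertases fell, PCSK2 from 95.6, 91.1 and 93.8 to 18.5, 18.5 and 21.5 CPM (log2 fold change -2.26 ± 0.10 SE, adjusted p = 2.10e-12; 258.5 kb) and PCSK1 from 319, 334 and 345 to 256, 269 and 277 (log2 fold change -0.32 ± 0.07 SE, adjusted p = 9.56e-04; 43.7 kb). PENK, the enkephalin precursor, rose from 6 ± 1.3 to 11.4 ± 1.3 CPM (log2 fold change 0.93 ± 0.16 SE, adjusted p = 5.32e-05). GRP, gastrin-releasing peptide, an autocrine growth factor of this tumour, rose from 109, 94 and 104 to 122, 133 and 133 CPM (log2 fold change 0.34 ± 0.08 SE, adjusted p = 0.00192), whereas it was at 24.2, 26.9 and 26.2 with FB23-2, below every DMSO library.

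Secreted proteases and their inhibitors had 35 (45.5%) of 77 higher and 17 (22.1%) lower, with a median of 0.38, and 35 and 19 after correction for length and GC content. Families within it went separate ways: 6 of 11 cathepsins rose and 1 fell, 8 of 12 serpins rose and SERPINE3 fell, and 9 of 12 ADAMTS and ADAMTSL genes fell and ADAMTS4 rose. ADAMTS4 was not called without DMSO replicate 1 (log2 fold change 0.45), DMSO replicate 2 (0.74), CS2 replicate 1 (0.71) or CS2 replicate 2 (0.75), nor after correction for length and GC content (0.64). CTSV, a lysosomal cathepsin, rose from 16.6, 15.4 and 18.4 to 95.6, 93.8 and 77.1 CPM (log2 fold change 2.40 ± 0.11 SE, adjusted p = 2.77e-12). CTSB and LGMN, further lysosomal proteases, rose from 33.7 ± 1.9 to 52 ± 3.8 CPM and from 57.2 ± 2.7 to 126 ± 10 CPM. CTSK, the bone-degrading cathepsin, was the cathepsin that fell, from 3.97 ± 0.34 to 1.38 ± 0.37 CPM (log2 fold change -1.51 ± 0.21 SE, adjusted p = 6.20e-06). SERPINH1, a collagen chaperone of the serpin family, rose from 4.97, 4.96 and 3.93 to 12.9, 14.2 and 13.8 CPM (log2 fold change 1.57 ± 0.13 SE, adjusted p = 1.05e-08). TIMP2 and TIMP1, inhibitors of matrix metalloproteases, rose from 34.6 ± 3.1 to 71.9 ± 9.2 CPM and from 3.51 ± 0.49 to 7.29 ± 1.2 CPM. ADAMTS3, a procollagen protease, fell from 3.14 ± 0.27 to 0.649 ± 0.28 CPM (log2 fold change -2.28 ± 0.28 SE, adjusted p = 1.46e-06; 288.4 kb). MMP26 fell from 7.37, 6.04 and 8.62 to 1.62, 1.48 and 1.76 CPM (log2 fold change -2.18 ± 0.21 SE, adjusted p = 4.68e-08; 287.5 kb), and the FB23-2 libraries, 1.94, 1.25 and 1.31, overlapped those of CS2.

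Of 98 matrix genes, 25 (25.5%) were higher and 25 (25.5%) lower. Of 46 plasma proteins, among them complement, apolipoproteins and IGF-binding proteins, 15 (32.6%) were higher and 10 (21.7%) lower. The median log2 fold changes of these lists were 0.02 and 0.22. Type IV collagen chains of basement membranes, COL4A5 and COL4A6, fell from 65.2 ± 3.3 to 28.4 ± 0.9 CPM and from 75.9 ± 4.8 to 34.2 ± 3 CPM, and span 257.7 kb and 283.9 kb. FRAS1, a basement membrane protein, fell from 91.8, 99.2 and 111 to 30.5, 26.9 and 30.1 CPM (log2 fold change -1.79 ± 0.09 SE, adjusted p = 9.20e-12; 486.7 kb, corrected -0.90). ECM1 rose from 4.16, 3.43 and 5 to 14.6, 15 and 13.4 CPM (log2 fold change 1.76 ± 0.16 SE, adjusted p = 2.45e-08). Syndecans, heparan sulfate proteins of the cell surface, rose in 3 of 4 and fell in 0, with SDC3 at 29, 28.3 and 28.4 CPM against 7.79, 6.71 and 7.91 (log2 fold change 1.93 ± 0.11 SE, adjusted p = 7.34e-11). SDC4 and SDC1 rose from 21.3 ± 1.8 to 41.2 ± 1.5 CPM and from 20.3 ± 2.7 to 32.2 ± 1.9 CPM. C5, the complement component, fell from 7.26, 7.98 and 8.08 to 1.12, 1.34 and 1.8 CPM (log2 fold change -2.46 ± 0.17 SE, adjusted p = 6.44e-10; 97.9 kb), and the FB23-2 libraries were at 21.4, 27.7 and 25.2 CPM (log2 difference -4.13 ± 0.17 SE, adjusted p = 3.40e-13). IGFBP5, a binding protein of insulin-like growth factors, fell from 1850, 1720 and 1800 to 922, 990 and 972 CPM (log2 fold change -0.90 ± 0.07 SE, adjusted p = 2.00e-09) and the FB23-2 libraries were lower still, at 361, 349 and 368 (log2 difference 1.42 ± 0.07 SE, adjusted p = 2.60e-12). IGFBP2 did not pass, at 220 ± 11 against 222 ± 32 CPM (adjusted p = 0.938).

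Interferon-stimulated genes had the largest share of increases of the 5 pathway lists. Of 34 tested of 47 listed, 25 (73.5%) rose and 2 (5.88%) fell, with a median log2 fold change of 0.80, and 14 rose more than 2-fold. These genes are switched on when interferons activate a complex of STAT factors and IRF9, which binds a promoter element with paired GAAA letters. USP18 and DDX60 were the members that fell, and MX2 and RSAD2 were among the 7 that did not pass. The promoters of 4 members that rose are shown because they carry that element: the 250 bases before the RefSeq transcription start, on GRCh38.p14, 5′ to 3′ in the direction of the gene. Capitals mark matches to GAAA, any 2 bases and GAAA again, on either strand, and overlapping matches run together.
IFI27 (chr14:94110486-94110735, plus strand): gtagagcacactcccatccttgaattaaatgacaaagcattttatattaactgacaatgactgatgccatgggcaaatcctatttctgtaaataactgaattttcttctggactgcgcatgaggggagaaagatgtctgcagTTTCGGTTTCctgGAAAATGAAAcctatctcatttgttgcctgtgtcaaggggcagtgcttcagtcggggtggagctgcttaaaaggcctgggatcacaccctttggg
IFI6 (chr1:27672193-27672442, minus strand): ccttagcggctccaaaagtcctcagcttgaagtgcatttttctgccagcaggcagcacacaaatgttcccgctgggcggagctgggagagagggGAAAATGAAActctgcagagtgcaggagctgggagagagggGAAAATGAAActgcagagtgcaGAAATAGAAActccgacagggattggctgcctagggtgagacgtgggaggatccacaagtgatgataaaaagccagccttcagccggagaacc
ISG15 (chr1:1013247-1013496, plus strand): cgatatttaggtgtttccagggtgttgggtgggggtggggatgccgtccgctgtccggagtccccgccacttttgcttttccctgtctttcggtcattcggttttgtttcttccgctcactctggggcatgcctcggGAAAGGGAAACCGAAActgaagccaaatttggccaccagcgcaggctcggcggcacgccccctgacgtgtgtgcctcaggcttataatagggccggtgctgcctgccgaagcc
B2M (chr15:44711267-44711516, plus strand): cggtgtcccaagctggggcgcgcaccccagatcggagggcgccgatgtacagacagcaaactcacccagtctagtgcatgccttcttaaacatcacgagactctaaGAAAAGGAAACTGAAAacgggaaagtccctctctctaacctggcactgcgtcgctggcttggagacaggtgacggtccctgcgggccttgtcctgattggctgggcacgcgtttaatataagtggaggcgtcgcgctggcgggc
Of the 28 tested members matched to a RefSeq promoter, 13 (46.4%) held the letters in this window: 12 of 21 that rose (57.1%) and 1 of 7 that did not (14.3%). Over 27305 RefSeq promoters of the same length 839 held them (3.07%). Such a match describes the letters of the window and not a bound site. Because the list was made of genes known to respond to interferon, a share above that of all promoters is built into its choice. The difference between members that rose and those that did not was not tested.

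The genes with those promoters differed in level and size of change. IFI27, a mitochondrial protein induced by type I interferon, was at 0.842, 0.859 and 0.666 CPM with DMSO and at 6.81, 4.9 and 4.13 with CS2 (log2 fold change 2.75 ± 0.24 SE, adjusted p = 1.67e-08). Its FB23-2 libraries, at 0.984, 0.767 and 0.904 CPM, overlapped DMSO (log2 difference 2.58 ± 0.24 SE, adjusted p = 1.87e-08). IFI6, with 3 matches in its promoter, rose from 4.58, 2.77 and 4.02 to 11.3, 9.69 and 10.7 CPM (log2 fold change 1.47 ± 0.23 SE, adjusted p = 3.98e-05). ISG15, a ubiquitin-like modifier, rose from 1.61, 1.37 and 1.38 to 4.63, 3.52 and 4.76 CPM (log2 fold change 1.57 ± 0.26 SE, adjusted p = 4.37e-05). B2M, the light chain of MHC class I, rose from 321, 299 and 293 to 622, 754 and 716 CPM (log2 fold change 1.20 ± 0.08 SE, adjusted p = 6.51e-10), and every CS2 library was above every DMSO library. The MHC heavy chain HLA-C rose from 85.1 ± 7.8 to 157 ± 2.4 CPM, and the peptide transporter TAP1 from 3.32 ± 0.42 to 6.67 ± 1.1. IFI35 rose from 5.32, 5.72 and 5.93 to 22.2, 20.3 and 24.1 CPM (log2 fold change 1.97 ± 0.15 SE, adjusted p = 1.62e-09). MX1, an antiviral GTPase, rose from 0.237, 0.541 and 0.555 to 2.18, 1.98 and 1.83 (log2 fold change 2.16 ± 0.30 SE, adjusted p = 6.83e-06). A member that rose less was OAS3, an enzyme that makes a signal for RNA decay, at 166 ± 5.6 against 136 ± 2.2 CPM (log2 fold change 0.28 ± 0.07 SE, adjusted p = 0.00273).

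**Figure D5:**
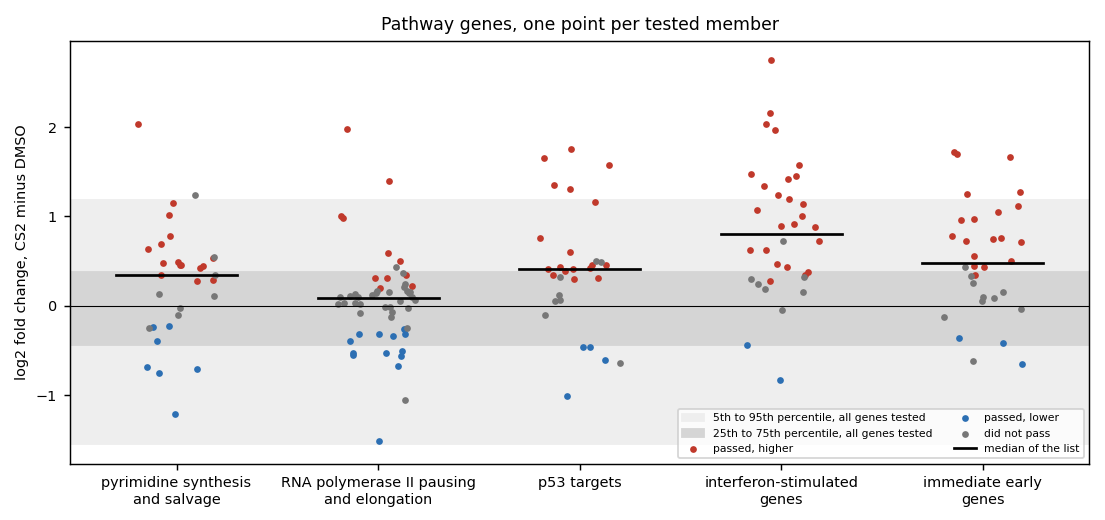
Log2 fold change with CS2 against DMSO (vertical axis) of each tested member of the 5 pathway lists; red points are higher, blue lower and grey did not pass, black lines are list medians, and grey bands hold the middle 50% and the 5th to 95th percentile range of all genes tested. The medians of interferon-stimulated genes (0.80), immediate early genes (0.47) and p53 targets (0.41) lie above the 75th percentile of all genes (0.38).

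Immediate early genes, which respond to signals within minutes and need no new protein, rose in 19 (59.4%) of 32 and fell in 3 (9.38%), with a median of 0.47 and a median span of 5.4 kb. Apart from the FOS, JUN, ATF3 and NR4A genes above, IER5 rose from 133, 101 and 116 to 251, 229 and 203 CPM (log2 fold change 0.96 ± 0.13 SE, adjusted p = 2.53e-05) and IER5L from 2.68, 2.13 and 2.2 to 8.61, 6.88 and 6.72 (log2 fold change 1.66 ± 0.19 SE, adjusted p = 4.25e-07). ARC, an activity-regulated gene of neurons, rose from 5.89, 3.66 and 3.66 to 12.7, 10.3 and 8.38 CPM (log2 fold change 1.25 ± 0.20 SE, adjusted p = 3.75e-05). DUSP1, which dephosphorylates MAP kinases, rose from 9.97 ± 0.81 to 13.6 ± 0.86 CPM (log2 fold change 0.45 ± 0.12 SE, adjusted p = 0.00447). KLF4, KLF6 and BTG1 fell, KLF6 from 52.3 ± 2.4 to 33.4 ± 2.7 CPM. EGR1 and MCL1 did not pass, at 3.76 ± 0.15 against 2.97 ± 0.62 and 339 ± 6.1 against 347 ± 19 CPM (adjusted p = 0.213 and 0.742).

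Genes of pyrimidine synthesis, salvage and breakdown, counted as 1 list, were higher in 16 (51.6%) of 31 tested and lower in 7 (22.6%), with a median of 0.34. Brequinar blocks the synthesis branch, of which CAD, DHODH and UMPS are the enzymes that make uridine monophosphate. DHODH, the target enzyme of the drug (chromosome 16, 72008588 to 72027664, plus strand, GRCh38), fell from 12.1, 12.1 and 13.6 to 8.25, 8.18 and 7.19 CPM (log2 fold change -0.68 ± 0.12 SE, adjusted p = 1.45e-04). The enzymes before and after it in that branch rose: CAD, which makes dihydroorotate, from 132, 123 and 135 to 196, 175 and 178 CPM (log2 fold change 0.49 ± 0.08 SE, adjusted p = 3.26e-05, corrected 0.31). UMPS, which makes uridine monophosphate, rose from 51.1, 49.6 and 48.6 to 73.2, 74.1 and 69.8 (log2 fold change 0.54 ± 0.11 SE, adjusted p = 3.50e-04). On the salvage side, the nucleoside transporter SLC29A1 rose from 146, 129 and 139 to 330, 314 and 276 CPM (log2 fold change 1.15 ± 0.08 SE, adjusted p = 5.15e-10). The uridine-cytidine kinases split, with UCK1 up from 74.8 ± 5.5 to 117 ± 4.9 CPM (log2 fold change 0.64 ± 0.08 SE, adjusted p = 1.78e-06) and UCK2 down from 99.1 ± 4 to 75.6 ± 5.4 (log2 fold change -0.39 ± 0.08 SE, adjusted p = 5.99e-04). DCTD, the deaminase of dCMP, fell from 33 ± 1 to 19.6 ± 1.8 CPM (log2 fold change -0.75 ± 0.10 SE, adjusted p = 4.82e-06). DPYD, which degrades pyrimidines, fell from 23.9 ± 0.55 to 10.4 ± 1.8 (log2 fold change -1.21 ± 0.12 SE, adjusted p = 8.47e-08, corrected 0.12). After correction for its 917.3 kb and GC content it did not pass (adjusted p = 0.396).

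RNA polymerase II and its elongation factors were at the background in number, 11 (20.4%) of 54 higher and 13 (24.1%) lower, and the 2 increases above 2-fold were HEXIM1 and POLR2A. POLR2A, the catalytic subunit, was at 234, 240 and 248 CPM with DMSO and at 712, 671 and 520 with CS2 (log2 fold change 1.40 ± 0.09 SE, adjusted p = 3.63e-10). With FB23-2 it was at 234, 226 and 249 CPM, overlapping DMSO (log2 difference 1.43 ± 0.09 SE, adjusted p = 1.49e-10). HEXIM1, which holds the elongation kinase P-TEFb inactive, rose from 47.8, 42.5 and 43 to 196, 183 and 148 CPM (log2 fold change 1.98 ± 0.12 SE, adjusted p = 1.51e-10) and was at 71.8, 65.7 and 90.9 with FB23-2. The P-TEFb subunits CDK9 and CCNT1 rose by smaller steps, CDK9 from 77.4 ± 3.9 to 109 ± 4.4 CPM (log2 fold change 0.50 ± 0.08 SE, adjusted p = 2.19e-05) and CCNT1 from 105 ± 1.2 to 130 ± 11, while CCNT2 fell from 52.1 ± 5 to 35.9 ± 3.6. ELL2, an elongation factor, rose from 24.6, 23.2 and 24.8 to 45.1, 53.6 and 46.2 CPM (log2 fold change 1.00 ± 0.11 SE, adjusted p = 3.63e-07). CDK12 and CDK13, kinases that act on polymerase over long genes, fell from 93.3 ± 1.4 to 63.3 ± 3.1 CPM (log2 fold change -0.56 ± 0.08 SE, adjusted p = 1.82e-05) and from 107 ± 0.77 to 74 ± 4.4 (log2 fold change -0.53 ± 0.08 SE, adjusted p = 1.65e-05, corrected -0.25). SETD2, the histone methyltransferase that travels with it, fell from 111 ± 9.2 to 78.5 ± 4.2 (log2 fold change -0.50 ± 0.09 SE, adjusted p = 8.12e-05, corrected -0.23).

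Targets of p53 rose in 18 (60%) of 30 and fell in 4 (13.3%; MDM2, CCNG1, XPC and POLH), with a median of 0.41. CDKN1A, the cell cycle inhibitor p21, did not pass, at 226, 165 and 182 CPM with DMSO and 200, 191 and 204 with CS2 (log2 fold change 0.05 ± 0.10 SE, adjusted p = 0.672). MDM2, the ubiquitin ligase of p53, fell from 63.2, 69.9 and 69.1 to 46.8, 51.4 and 49.2 CPM (log2 fold change -0.46 ± 0.09 SE, adjusted p = 2.96e-04). BBC3, the death factor PUMA, rose from 7.74, 6.68 and 6.82 to 24.2, 20.6 and 21.9 CPM (log2 fold change 1.65 ± 0.12 SE, adjusted p = 1.83e-09). FDXR, a mitochondrial reductase, rose from 14.7, 12.3 and 13.1 to 35.7, 31.6 and 34.8 (log2 fold change 1.35 ± 0.13 SE, adjusted p = 7.63e-08). SESN2 rose from 7.99 ± 2 to 17.9 ± 0.54 CPM and was at 48.3 ± 4.6 with FB23-2.

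Neuroendocrine markers moved in both directions, 7 of 19 tested higher and 9 lower. UCHL1 and ENO2, a neuronal ubiquitin hydrolase and enolase, rose from 524 ± 11 to 752 ± 10 CPM and from 295 ± 17 to 428 ± 21 CPM. SYP, the vesicle protein synaptophysin, did not pass at 136 ± 3.5 against 133 ± 8.4 CPM (adjusted p = 0.811). DDC, an enzyme of amine hormone synthesis, fell from 324 ± 17 to 261 ± 3.8 CPM (log2 fold change -0.31 ± 0.10 SE, adjusted p = 0.0108, corrected -0.18). DDC lost its call after correction for length and GC content or when DMSO replicate 1 was left out (log2 fold change -0.27). The FB23-2 libraries averaged 53.7 ± 10. Markers of tuft-like, YAP1-type and other non-neuroendocrine tumours summed to 99 to 106 CPM with DMSO and 81 to 89.4 with CS2, with YAP1 and REST at 0. SOX9, one of them, fell from 39 ± 3.1 to 20.3 ± 1.7 CPM (log2 fold change -0.94 ± 0.10 SE, adjusted p = 3.96e-07). Airway and squamous markers summed to 35.8 to 43.5 CPM with DMSO and 22.5 to 28 with CS2, and MUC5AC, a mucin, fell from 20.7, 22.2 and 27.7 to 11.6, 8.52 and 12 CPM (log2 fold change -1.14 ± 0.15 SE, adjusted p = 2.59e-06) and lay at 0.596, 0.455 and 0.729 with FB23-2. In bulk RNA, fewer cells of a type and less RNA per cell cannot be told apart.

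Outside the lists, the largest changes were in genes of varied function. HAP1, the huntingtin-associated protein of vesicle transport, rose from 0.526, 0.668 and 0.422 to 6.46, 6.27 and 4.36 CPM (log2 fold change 3.42 ± 0.25 SE, adjusted p = 1.15e-09). RIBC1, a protein of ciliary microtubules, rose from 1.32, 1.27 and 1.53 to 10.6, 10.6 and 8.62 CPM (log2 fold change 2.84 ± 0.18 SE, adjusted p = 1.78e-10). VASN, a surface protein that binds TGF-beta, rose from 1.84, 1.34 and 1.09 to 10.4, 9.89 and 6.22 CPM (log2 fold change 2.64 ± 0.23 SE, adjusted p = 1.62e-08) and was at 1.04, 0.839 and 1.14 with FB23-2. Of the decreases, AQP4, the water channel of astrocytes, was at 5.92, 4.13 and 5.35 CPM with DMSO and at 0.324, 0.201 and 0.665 with CS2 (log2 fold change -3.69 ± 0.34 SE, adjusted p = 2.48e-07), and the gene spans 13.8 kb. With FB23-2 it was at 12, 20.8 and 11.7 CPM (log2 difference -5.22 ± 0.33 SE, adjusted p = 1.36e-09), so that the compounds lay on opposite sides of DMSO. CYBB, the catalytic subunit of the phagocyte NADPH oxidase, fell from 6.08, 6.49 and 6.64 to 0.531, 1.01 and 1.03 CPM (log2 fold change -2.91 ± 0.24 SE, adjusted p = 6.71e-09; 33.5 kb). AKAP6, an anchor of protein kinase A in muscle and neurons, fell from 7.53, 9.54 and 9.7 to 1.53, 1.21 and 1.13 CPM (log2 fold change -2.78 ± 0.18 SE, adjusted p = 3.17e-10; 508.4 kb, corrected -1.83). FTO itself, the enzyme the compounds are named for in the series, fell from 55.5, 56.6 and 58.7 to 39.9, 40 and 39.4 CPM with CS2 (log2 fold change -0.52 ± 0.09 SE, adjusted p = 6.74e-05; 456.8 kb, corrected 0.35). This direction turned after correction for length and GC content, where FTO passed as higher (adjusted p = 4.49e-04). Its FB23-2 libraries, at 55.3, 65.5 and 54.1 CPM, overlapped those of DMSO.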

How the data were processed

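Total RNA of H69 cells was extracted with TRIzol and made into mRNA sequencing libraries with a Hieff NGS Ultima kit, as the labels' protocols state. For 9 H69 libraries, 3 each for DMSO, CS2 and FB23-2, the authors deposited counts of reads by gene in whole numbers. The submitters' processing notes name genome build hg38. Aligner, counter, annotation and strand mode remain not given in the sources used here. The 6 H82 samples of the series were not analysed here. The column headers write FB23 for FB23-2.

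The deposited table names genes by Ensembl ID. Of 62754 IDs, 42343 were given a symbol from a reference table of gene names, and spans, coordinates and overlaps are from GENCODE release 29 on GRCh38, which lacked 4493 of the IDs. Genes were kept by edgeR's filterByExpr (minimum count 10, minimum total 15), which left 19781. Counts of all 9 libraries were scaled by TMM and fitted in edgeR 4.0.16 (limma 3.58.1, R 4.3.3) with group means and no covariate, with 6 residual degrees of freedom, by the robust quasi-likelihood test. P-values were adjusted by Benjamini-Hochberg over all genes tested, with a threshold of 0.05. The biological coefficient of variation was 0.101. SE were derived from the log2 fold change and its F statistic. The pipeline was tested on simulated data in which only a small part of the genes was changed, without regard to gene length. Such data do not test the scaling where 49.7% of genes passed. Summaries used Python 3.11.15 with pandas 2.3.3.

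Same-numbered DMSO and CS2 libraries did not deviate together (correlations of -0.031, -0.016 and -0.018), so no pairing was used. Alternatives were RLE size factors, library size alone, no filter, a mean of at least 1 CPM, DESeq2 1.42.0, only the 6 DMSO and CS2 libraries, a replicate block, removal of mitochondrial genes, correction for span and GC content, and each library left out in turn.

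Members and lists were chosen with earlier results of these data known. In each of the 4 classes the 8 largest increases and 8 largest decreases, in each list the 2 largest each way, and outside the lists the 12 largest each way were named, among genes past the threshold with at least 5 CPM in a group and libraries that did not overlap. FTO, DHODH, HEXIM1 and MYCN were always named, and further members were named after their values were seen. Some genes that this rule takes are not reported here. Lists were counted, not tested. Promoter windows are from RefSeq (GRCh38.p14).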

Additional observations from a re-analysis of the deposited data

How the results depend on the processing

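The numbers of genes higher and lower with CS2 were 4815 and 5014, and ranged from 4083 to 5402 and from 4262 to 5333 over the 15 alternatives, each within 1.5 times the first value. DESeq2 gave 4862 and 4857. With only genes of a mean of at least 1 CPM, 729 genes were more than 2-fold higher and 1083 more than 2-fold lower, against 1250 and 1893, from fewer genes tested. A replicate block, in a design where numbers did not pair the libraries, gave 5043 and 5228. Of 354 genes past the threshold that were taken by the rule or examined singly, 319 kept call and direction under all 15 alternatives and 35 lost or turned under at least 1. Correction for span and GC content changed the sign of 7. FTO (log2 fold change 0.35, adjusted p = 4.49e-04) and PTPRD (0.47, adjusted p = 9.03e-06) then passed as higher. The others did not pass: BMPR1A at 0.09, CDK14 at 0.08, DPYD at 0.12, ROBO1 at 0.13 and TCF4 at 0.10. The cause was not tested. Of 108 listed chemokines, cytokines, interferons and TNF ligands, 87 did not pass the filter on low counts, 36 of them with no count in any DMSO or CS2 library.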

Other observations

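Noncoding classes had smaller shares of calls than protein-coding genes, of which 27.5% of 14037 tested were higher with CS2 and 26.7% lower. Calls of more than 2-fold went the other way, with larger shares in the noncoding classes. More than 2-fold lower were 229 of 1281 lincRNA genes, 222 of 1446 antisense genes and 112 of 897 processed pseudogenes. The number for protein-coding genes was 1009 of 14037. What part low counts have in these shares was not tested. Of 1281 lincRNA genes, 20.8% were higher and 24.9% lower. Of 1446 antisense genes, 17.9% were higher and 22% lower, with a median log2 fold change of -0.12, and without the strand setting their reads cannot be told apart from those of the gene on the other strand. Processed pseudogenes had the lowest share of increases of these classes, 8.7% of 897, with 19.6% lower and a median of -0.19. The authors' counting may split reads between such copies and their parent genes.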
